A study of Homo sapiens with 12 samples.

Results

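The 200 circular RNA (circRNA) probes with the brightest signal in untreated human β-cells are described here, out of 13617 circRNA probes on the array. They were chosen by their mean log2 signal over the 6 untreated arrays, quantile normalized over all circRNA probes of the 12 arrays, so their level in untreated cells is a description with no test. EndoC-βH1, a human insulin-producing cell line, was left untreated or received the cytokines IL-1β (50 U/mL) together with IFN-γ (1000 U/mL), and each condition was profiled at 24 h and 48 h with 3 arrays per group. The cells at 48 h with cytokines carry an exposure time of 24 h in the sample labels, whereas the study's methods give 48 h; they are called cytokines at 48 h here. No source used here says whether the 3 arrays of a group came from separate cultures, so the p-values measure only the spread between these arrays. The arrays hold 70 probes for linear mRNAs that could be named, and 0 of 18 listed islet cell markers is among them, so the β-cell label was not checked against markers.

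circRNAs are closed loops that form when the spliceosome joins the end of an exon back to the start of the same or an earlier exon. They have no free ends, which makes them resistant to exonucleases such as RNase R and long-lived in cells. For this reason, circRNAs of a few loci can build up to high levels even where their host gene is transcribed only moderately, and some have been described as decoys for microRNAs or RNA-binding proteins. IL-1β and IFN-γ are the cytokines used to model the inflammation that β-cells meet in type 1 diabetes.

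Each circRNA has a single probe ID in the files, and no table used here pairs the IDs with host genes, so the circRNAs are given by probe ID. The signal of a probe also depends on how well its sequence binds, so a rank by signal is a rank of probes by brightness and not of circRNAs by number of molecules. All 200 probes were well above background on all 12 arrays, and no circRNA spot was saturated. The faintest of the 200 was 5.38 to 53.3 times as bright as the brightest negative control of the same array. The median circRNA spot reached only 25 to 37 intensity units over a local background of 14 to 16. The first cytokine array at 24 h stood apart from the others, and shares, lists and medians that use it are given with and without it. On 1 day 8 arrays were scanned, among them all arrays at 24 h. The other 4, among them all cytokine arrays at 48 h, were scanned on another day. Each scan day is taken here as 1 slide, so a slide below stands for a scan day.

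The 200 brightest probes made up 1.47% of the circRNA probes and held more than 50% of the signal on each untreated array. At 24 h the untreated arrays had 61.4%, 64.1% and 57.3% of their summed circRNA signal in these probes (60.9% ± 3.40, SD, n = 3). At 48 h the untreated arrays had 60.1%, 57.6% and 54.9% (57.5% ± 2.64, SD, n = 3). The signal was concentrated within the list as well. The brightest probe by itself held 2.80% to 4.67% of the signal on the untreated arrays, the 10 brightest 19.5% to 23.3%, and the 50 brightest 38.0% to 44.4%. The next 200 probes added little, since the 400 brightest held a median of 66.9% on the untreated arrays against 58.9% for the 200.

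The cytokine arrays had similar shares apart from the array that stood apart. At 24 h the cytokine arrays had 45.0%, 58.8% and 61.2% of their signal in the 200 probes (55.0% ± 8.77, SD, n = 3). At 48 h they had 62.6%, 58.9% and 56.5% (59.3% ± 3.10, SD, n = 3), which overlapped the untreated arrays of the same time. The low value of 45.0% belonged to the first cytokine array at 24 h, where the median processed signal over all circRNA probes was 21.3 units, the highest of the 12 arrays (10.5 to 19.8 on the others). Without that array, the mean share at 24 h with cytokines was 60.0%. A share of 50% of the signal was reached with 245 probes on that array, and with 55 to 127 probes on the other 11.

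**Figure D1:**
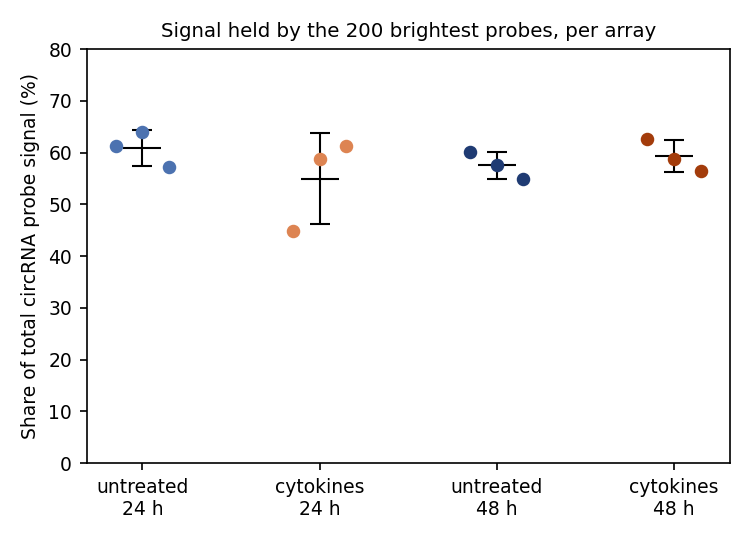
Share of each array's total circRNA probe signal (y axis, percent, starting at 0) held by the 200 brightest probes, in the 4 groups (x axis); points are arrays, and the bar and whiskers are the mean and SD of 3 arrays. The first cytokine array at 24 h lies at 45.0%, and the other 11 arrays lie between 54.9% and 64.1%.

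**Figure D2:**
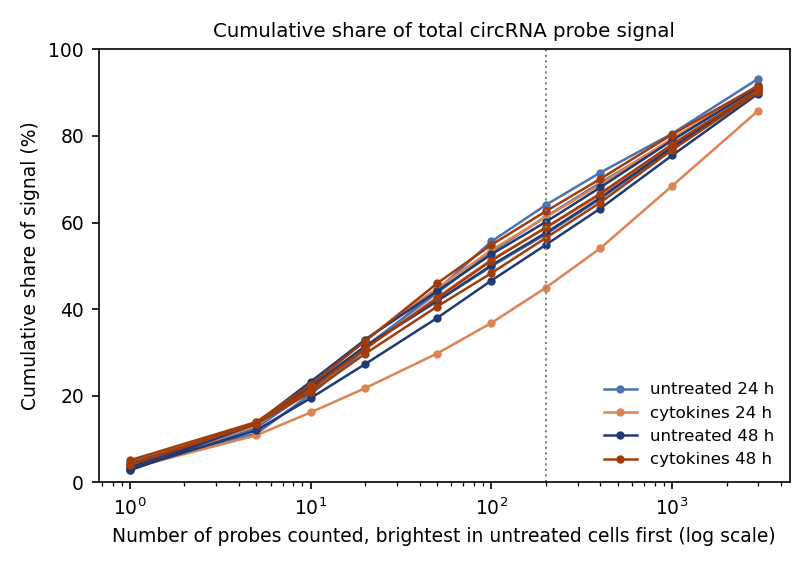
Cumulative share of the circRNA signal (y axis, percent) against the number of probes counted from the brightest in untreated cells (x axis, log scale); each line is an array, coloured by group, and the dotted line marks 200 probes. The 11 arrays that run together reach 54.9% to 64.1% at 200 probes, and the first cytokine array at 24 h runs below them at 45.0%.

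Because the untreated arrays chose the probes, a list chosen at the other time was used to compare the shares between treatments. The 200 probes chosen on the untreated arrays of 48 h shared 191 with the list and held 60.5% of the signal in untreated cells and 55.1% with cytokines at 24 h (difference -5.42 percentage points). An exact two-sided permutation test over arrays gave p = 0.40 (n = 3 per group, smallest possible p = 0.10). Without the first cytokine array at 24 h, this list held 59.8% with cytokines, a difference of -0.68 percentage points (exact permutation p = 0.80, 2 against 3 arrays, smallest possible p = 0.10). The 200 probes chosen at 24 h shared 188 with the list and held 57.2% in untreated cells and 58.9% with cytokines at 48 h (difference 1.76 percentage points, exact permutation p = 0.60, n = 3 per group). With 3 arrays per group this design cannot reach p under 0.05.

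The brightest probe was ASCRP3002093, with a mean log2 signal of 15.76 over the untreated arrays. Its background-subtracted signal was 77577, 92252 and 48993 on the untreated arrays at 24 h and 57888, 51760 and 47241 on the cytokine arrays at 24 h. At 48 h its signal was 49726, 43152 and 63171 untreated, and 81345, 60213 and 50904 with cytokines. It ranked first on all arrays except the second untreated array at 48 h, and because quantile normalization gives equal ranks equal values, its log2 signal was 15.86 on the other 11.

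ASCRP3006243 was the second brightest, with a mean log2 signal of 15.31 in untreated cells. Its signal was 48621, 73570 and 44259 untreated at 24 h, and 26061, 34834 and 45798 with cytokines. At 48 h it was 40822, 38963 and 51013 untreated against 38435, 22430 and 14578 with cytokines, so the cytokine arrays lay lower before normalization. After normalization the cytokine arrays at 48 h were 15.27, 14.79 and 14.37 and overlapped the untreated arrays (15.06 to 15.44); the log2 fold change was -0.45 (SE 0.26, adjusted p = 0.638, limma).

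The next 3 probes, ASCRP3003030, ASCRP3007103 and ASCRP3006193, had nearly equal means of 15.07, 15.03 and 15.03 in untreated cells. Their pooled SDs within groups were 0.32, 0.33 and 0.25, larger than the differences between their means, so their order is not resolved. ASCRP3003030 gave log2 signals of 14.68, 14.37 and 15.27 untreated and 15.44, 15.20 and 15.27 with cytokines at 24 h. ASCRP3007103 gave 14.79, 14.54 and 15.44 untreated and 15.20, 15.27 and 15.20 with cytokines at 24 h. In both, the third untreated array was as high as or higher than most of the cytokine arrays, and the groups overlapped. ASCRP3006193 gave 15.20, 14.68 and 14.79 untreated and 15.27, 15.06 and 14.79 with cytokines at 24 h, which also overlapped.

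The levels fell smoothly to the end of the list, with no step at the limit. The mean log2 signals in untreated cells ran from 15.76 to 9.82, a 61.4-fold range. Just inside the limit lay ASCRP3005166 at 9.84 (rank 199) and ASCRP3006336 at 9.82 (rank 200), and just outside lay ASCRP3006751 at 9.82 and ASCRP3007960 at 9.79.

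Most of the 200 were among the 200 brightest on every array. Of the 200 probes, 109 were among the 200 brightest of every one of the 12 arrays, 28 were among the 50 brightest of every array, and 6 among the 10 brightest of every array. The 6 untreated arrays chose the list, so their part of these counts is largely set by the choice. On all 6 untreated arrays 133 were among the 200 brightest. On all 6 cytokine arrays, which did not enter the mean that chose the list, 118 were. Only 15 were among the 200 brightest on 6 arrays or fewer. Per array, 147 to 186 of the 200 were in the array's own list, with the lowest number on the first cytokine array at 24 h and 166 or more on the other 11. By group means, the cytokine arrays at 24 h shared 169 of their 200 brightest probes with the list and those at 48 h shared 177, against 188 and 191 for the untreated arrays that chose it. Without the first cytokine array, those at 24 h shared 175. Over the 200 probes, the lowest rank correlation between any pair of arrays was Spearman's rho 0.49, between the second untreated and the first cytokine array at 24 h; without the first cytokine array the lowest was 0.66. The points share the array and the probes, and the values are a description.

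The spread between arrays of a group was slightly below that of all retained probes and slightly above that of the probes next in brightness. The pooled within-group SD of the log2 signal had a median of 0.37 over the 200 (range 0.11 to 2.37), against 0.40 over the 10211 retained probes, 0.36 over the 7594 probes detected on all 12 arrays, and 0.34 over the 200 next brightest probes. Of the 200, 46 had an SD under 0.25 and 2 had an SD over 1. The error that the image extraction software assigned to the processed signal was 10% for the median member on every array. It was 10.3% to 11.3% for the median retained probe. This assigned error is not a spread between arrays. By group, the median SD of the 200 was 0.31 untreated and 0.42 with cytokines at 24 h, and 0.24 in both groups at 48 h. Without the first cytokine array at 24 h, the median pooled SD was 0.28.

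The 2 probes with an SD over 1 stood at opposite ends of the list. ASCRP3001056, the tenth brightest and the probe with the largest SD (2.37), gave a signal of 53.0 on the second cytokine array at 24 h, against 15359 to 34761 on the other 11 arrays. That spot was not marked as non-uniform by the scanner software, and the array had a separate scan run. Its log2 fold change at 24 h was -2.71 (SE 1.55, adjusted p = 0.349, limma), and it was 0.02 without that array (adjusted p = 0.982). ASCRP3006336, at rank 200, had an SD of 1.53, and its spot was marked as non-uniform on 10 of 12 arrays, while the 200 probes had 21 such spots of 2400 in all. The smallest SD, 0.11, belonged to ASCRP3006354 at rank 13, with log2 signals of 14.14, 13.89 and 14.07 untreated and 14.14, 14.14 and 13.89 with cytokines at 24 h. At 48 h it gave 14.24, 14.14 and 14.14 untreated and 14.54, 14.68 and 14.68 with cytokines, so the groups did not overlap, but the difference of 0.46 (SE 0.20) did not pass the adjustment (adjusted p = 0.460, limma).

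Cytokines for 24 h moved none of the 200 probes past the cutoffs. A probe was called when its log2 fold change was 1 or more in size and its p, adjusted over all retained probes by Benjamini-Hochberg, was under 0.05. The count was 0 of 200 in limma, where 1.24% of the 10211 retained probes were called (127 probes), and the smallest adjusted p among the 200 was 0.0641. The count was 6 of 200 (3%) without untreated array 3 of 24 h, where 3.06% of the retained probes were called, and 6 without cytokine array 3 of 24 h, where 4.39% were. It was 1 (0.5%, against 1.12%) without untreated array 1 of 48 h, and 0 when any other array was left out. At an unadjusted p under 0.05, 28 of the 200 passed (14.0%; 11 higher and 17 lower with cytokines), against 19.1% of the retained probes. The arrays of the groups did not overlap for 27 of the 200 (13.5%), against 17.5% of the retained probes. These shares lie below the background, so they give no result about the list. The median log2 fold change of the 200 was -0.12, against -0.08 over the retained probes. Lower with cytokines were 121 of the 200 (60.5%), against 55.9% of the retained probes and 63% of the 200 next brightest. The untreated arrays both chose the 200 and enter this difference, so the choice by itself favours lower values with cytokines. The list chosen on the untreated arrays of 48 h had a median of -0.07 at 24 h, with 113 of 200 lower. Without the first cytokine array at 24 h the median of the 200 was 0.01 and that of the retained probes -0.07. The direction among the 200 therefore depended on that array as well. The median was -0.54 with 75th-percentile scaling of the arrays, where the retained probes had -0.10.

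Cytokines at 48 h gave the same count of 0 of 200 at the cutoffs in limma, where 0.979% of the retained probes were called (100 probes). The smallest adjusted p among the 200 was 0.112. At an unadjusted p under 0.05, 13 passed (6.5%; 7 higher and 6 lower), against 10.1% of the retained probes. The arrays did not overlap for 39 of the 200 (19.5%), against 21.1% of the retained probes. The median log2 fold change was -0.02, against 0.01 over the retained probes. The list chosen on the untreated arrays of 24 h had a median of 0.01 at 48 h, with 98 of 200 lower. The 48 h comparison is split over the scan days, since the third untreated array and all 3 cytokine arrays were scanned on the same day. Within that day the median of the 200 was 0.03 (1 untreated against 3 cytokine arrays).

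The precision of these counts can be read from the intervals. The median standard error of a log2 fold change among the 200 was 0.31. The 95% interval lay within a 2-fold change in either direction for 92 of the 200 at 24 h (46.0%, against 39.6% of the retained probes) and for 122 at 48 h (61.0%, against 50.0%). For the others of the 200 a change of 2-fold or more lay inside the interval. The 200 next brightest probes had shares of 41% at 24 h and 61.5% at 48 h. The 600 probes after those had 48.8% and 67%, and the 2000 after that 52% and 68%. The 4211 faintest retained probes had 25.9% and 30.5%, so faint probes lower the share of all retained probes. A share above that of the retained probes was therefore not particular to the 200. The fitted log2 fold change was at least 1 in size for 12 of the 200 at 24 h (6%, against 8.93% of the retained probes). At 48 h it was so for 1 of the 200 (0.5%, against 5.4%). Among the 200 next brightest probes these shares were 4.5% at 24 h and 2% at 48 h. Of those next brightest probes, 0 were called at 24 h and 1 at 48 h (0.5%), against 1.24% and 0.979% of the retained probes. A rank from the untreated arrays alone places probes raised by cytokines lower, which favours few calls here. With ranks from all 12 arrays, which the cytokine arrays enter, 6 of the 200 next brightest were called at 24 h and 6 at 48 h (3% each), all higher. Of the 200 brightest on that ranking, 0 were called at either time.

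**Figure D3:**
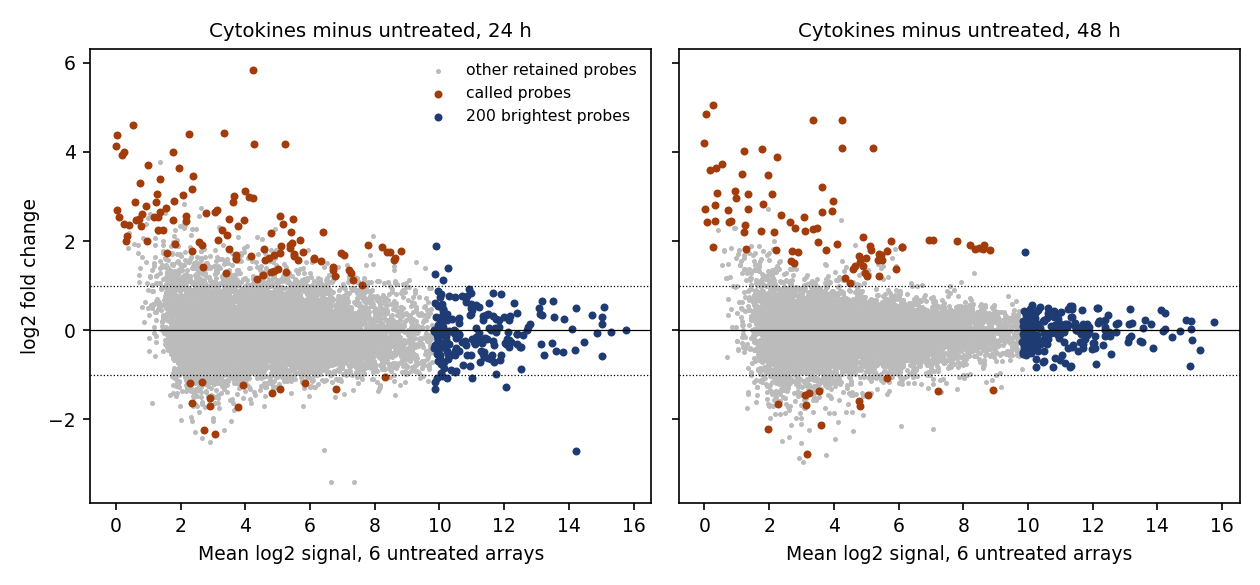
log2 fold change of cytokines against untreated cells (y axis) against the mean log2 signal of the 6 untreated arrays (x axis) for the 10211 retained probes at 24 h and 48 h; blue points are the 200 brightest probes, red points are called probes, and dotted lines mark a log2 fold change of 1 in either direction. Called probes lie left of the 200 brightest probes at both times, which follows from the choice of the 200, none of which was called.

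None of the 200 was called, so by the choice of the list every called probe was fainter in untreated cells than the 200. The brightest of the 127 called at 24 h, ASCRP3011939, had rank 406 in untreated cells, and the brightest of the 100 called at 48 h, ASCRP3004335, had rank 378. The median untreated rank of the called probes was 7015 at 24 h and 7285 at 48 h. Most calls were increases (113 of 127 at 24 h and 86 of 100 at 48 h), and a low untreated value favours both a low rank and such a call. These medians are therefore a description. Of the 4211 faintest retained probes by untreated rank, 1.71% were called at 24 h and 1.4% at 48 h. With ranks from all 12 arrays, the 4211 faintest had 1.38% and 1.09%, against 1.24% and 0.979% of the retained probes.

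Of the 200, 2 had an unadjusted p under 0.05 at both times, each in the same direction at both (1.00%, against 3.47% of the retained probes). The comparisons at 24 h and 48 h share no arrays, but they share the estimate of the spread. The 2 probes are named because of their values. ASCRP3007349, at rank 189, gave log2 signals of 9.41, 9.23 and 10.36 untreated and 12.22, 11.15 and 11.32 with cytokines at 24 h. At 48 h it gave 9.21, 10.76 and 10.43 untreated and 11.45, 12.02 and 12.19 with cytokines. All cytokine arrays lay above all untreated arrays at both times.

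The log2 fold change of ASCRP3007349 was 1.90 (SE 0.44, adjusted p = 0.0641, limma) at 24 h and 1.75 (SE 0.44, adjusted p = 0.112, limma) at 48 h, so it had the largest fitted increase of the 200 at both times without passing the adjustment. Its call depended on the processing. At 24 h it passed the cutoffs with cyclic loess scaling (adjusted p = 0.0474), with the filter set to detection on all 12 arrays (adjusted p = 0.0420) and with a trended, robust variance (adjusted p = 0.0289), all in limma. It also passed at 24 h with the signal before background subtraction (adjusted p = 0.0474), without untreated array 3 at 24 h (adjusted p = 0.0290), without cytokine array 3 at 24 h (adjusted p = 0.0476) and without untreated array 1 at 48 h (adjusted p = 0.0328). At 48 h it passed with 75th-percentile scaling (adjusted p = 0.0311, limma). With the slide as a block, the log2 fold change was 1.90 at 24 h (adjusted p = 0.0829, limma) and 1.46 at 48 h. At 48 h the block leaves 1 untreated array to set against the 3 cytokine arrays, so only the size is given.

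ASCRP3003345, the sixth brightest probe with a mean of 15.02 in untreated cells, was the other, and it was lower with cytokines. Its signal before normalization was 33065, 54990 and 40114 untreated and 16899, 23633 and 21451 with cytokines at 24 h. At 48 h its signal was 30530, 30908 and 36785 untreated and 18118, 18392 and 12240 with cytokines. The cytokine arrays lay below the untreated arrays at both times on this scale and after normalization. The log2 fold change was -0.57 (SE 0.21, adjusted p = 0.193, limma) at 24 h and -0.80 (SE 0.21, adjusted p = 0.132, limma) at 48 h, smaller than the cutoff in size.

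**Figure D4:**
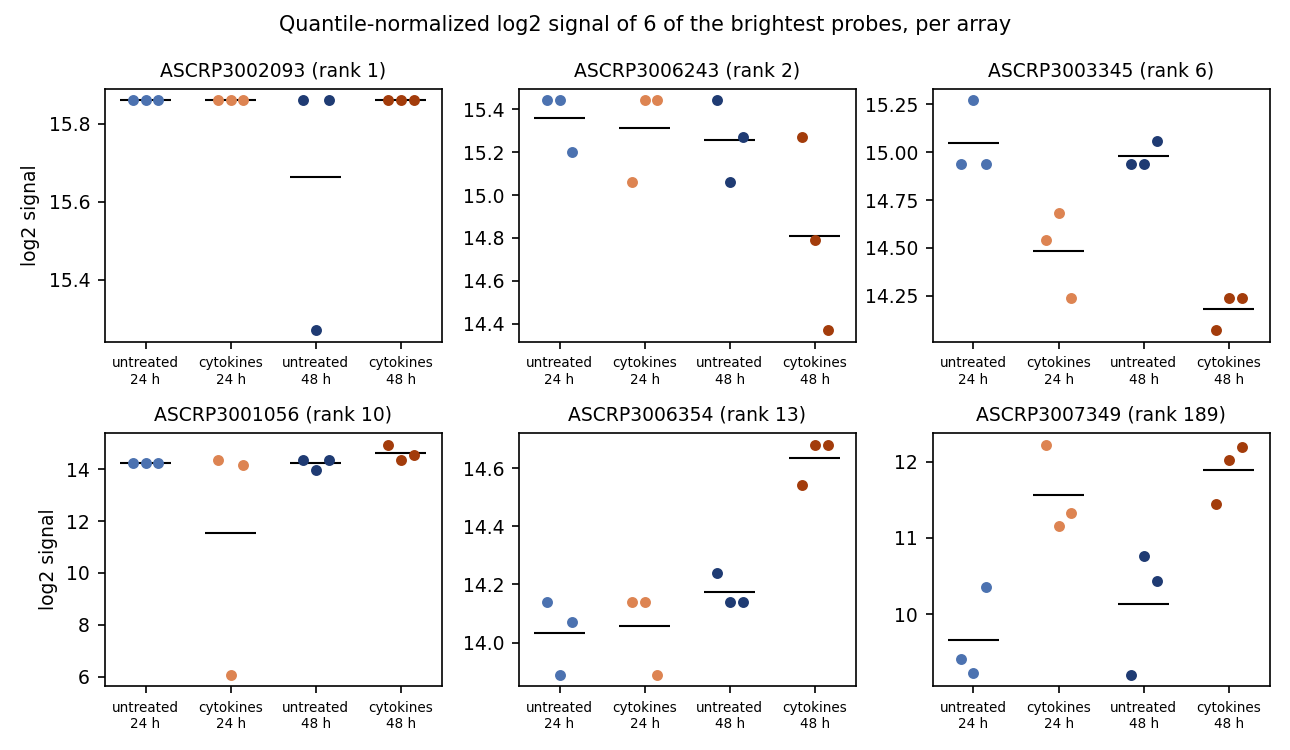
Quantile-normalized log2 signal (y axis, own scale in each panel) of 6 of the 200 probes in the 4 groups (x axis); points are arrays and lines are means of 3 arrays. ASCRP3007349 was higher and ASCRP3003345 lower on every cytokine array than on every untreated array of the same time, and ASCRP3001056 had 1 array far below the others.

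Non-overlapping arrays in the same direction at both times were found for 5 of the 200 (2.50%, against 4.77% of the retained probes), these 2 and 3 others that were higher with cytokines and are likewise named because of their values. ASCRP3010782, at rank 35, had log2 fold changes of 0.38 and 0.22 at 24 h and 48 h. ASCRP3001916, at rank 166, had 0.81 and 0.37, and ASCRP3005009, at rank 193, had 1.26 and 0.43. The adjusted p of ASCRP3005009 at 24 h was 0.0786, and those of the other 2 were 0.326 and 0.131 (limma). These calls also depended on the processing. ASCRP3005009 passed the cutoffs at 24 h with the signal before background subtraction (adjusted p = 0.0399), the deposited values (adjusted p = 0.0388) and a trended, robust variance (adjusted p = 0.0443). It also passed without untreated array 3 (adjusted p = 0.0320) or cytokine array 3 of 24 h (adjusted p = 0.0208), and ASCRP3001916 passed without untreated array 3 of 24 h (adjusted p = 0.0344), all in limma. ASCRP3009841, at rank 160 and lower with cytokines, passed at 24 h before background subtraction (adjusted p = 0.0205), with normexp (0.0312) and with the deposited values (0.0227, limma). Without cytokine array 3 of 24 h it passed too, with ASCRP3007021 and ASCRP3003634, both lower, and ASCRP3007495, higher. Without untreated array 3 of 24 h, ASCRP3004648, ASCRP3007495 and ASCRP3004255, all higher, also passed.

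The responses at 24 h and 48 h did not differ past the cutoffs for any of the 200 or of the retained probes (0 of 200 and 0 of 10211 in limma, 0% called). At an unadjusted p under 0.05 the difference passed for 21 of the 200 (10.5%), against 10.1% of the retained probes.

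Untreated cells at 48 h and 24 h had non-overlapping arrays for a larger share of the 200 than of the retained probes. The share with an unadjusted p under 0.05 was larger in some settings only. The third untreated array at 48 h was scanned on another day, so time and scan day are partly mixed here. The choice by the mean of the 6 arrays does not use the difference between their times. None of the 200 was called, nor any retained probe (0 of 200 and 0 of 10211 in limma, 0% called). The arrays of the times did not overlap for 38 of the 200 (19.0%; 17 higher and 21 lower at 48 h), against 8.22% of the retained probes, and 16 had an unadjusted p under 0.05 (8%), against 3.16%. Across 5 other scalings and signals, 15% to 19.5% of the 200 did not overlap, against 8.3% to 11.7% of the retained probes. With 1 untreated array left out, which leaves fewer arrays to overlap, 23.5% to 53.5% of the 200 did not overlap, against 12.5% to 30.4%. The unadjusted p-values were less stable. The share under 0.05 was 11% with cyclic loess (against 3.47%), 16% with the signal before background subtraction (against 3.73%) and 14% with the deposited values (against 4.03%). Without the second untreated array at 24 h, 1 of the 200 had an unadjusted p under 0.05 (0.5%, against 1.96%). Without the third untreated array at 48 h, which was scanned on the other day, or with the slide as a block, 4 did (2.00%, against 2.96%). With the scan run as a block, 3 did (1.5%, against 2.64%). Without the third untreated array at 24 h, 38 did (19.0%, against 9.46%), and without the first cytokine array at 24 h, which enters only through the shared spread, 33 did (16.5%, against 5.05%).

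Cytokine-exposed cells at 48 h against 24 h also gave 0 of 200 and 0 of 10211 calls in limma (0% called). These arrays were not used to choose the probes. At an unadjusted p under 0.05, 28 of the 200 passed (14.0%; 23 higher at 48 h and 5 lower), against 11.9% of the retained probes, and 44 did not overlap (22.0%), against 17.6%. Without the first cytokine array at 24 h, 26 passed (13%, against 13% of the retained probes), with 14 higher and 12 lower at 48 h, so the preponderance of higher probes rested on that array. In this comparison all arrays at 48 h were scanned on the second day and all arrays at 24 h on the first. Time and scan day therefore cannot be told apart.

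Properties that the choice did not use were also looked at. The 200 probes lay in all parts of the array, with 49, 57, 41 and 53 of them in the upper left, upper right, lower left and lower right quadrant. Among them were 13 pairs with consecutive probe IDs, made up of 25 probes. The deviations of such a pair from their group means, over the 12 arrays, correlated with a median r of 0.63 (range -0.88 to 0.98), against 0.03 over the 7729 pairs of consecutive IDs among the retained probes. The pairs share arrays, and r is a description. The other retained probes are fainter than the 200, and pairs of other IDs among the 200 are not compared here. Whether the higher r goes with consecutive IDs was therefore not tested. ASCRP3006887 and ASCRP3006888, at ranks 93 and 68, had the highest value (0.98). Of the 13 pairs, 8 had an r over 0.5 and 5 had an r below 0.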

How the data were processed

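Total RNA was digested with RNase R, labelled with Cy3 and hybridized to Arraystar Human circRNA Array V2, and the authors extracted the images with Feature Extraction 11.0.1.1. The deposited scanner files give for each spot a fluorescence intensity (background-subtracted processed signal, median signal and local background) and other values, the 0 or 1 flags for detection and spot quality. A further table deposited by the authors holds log2 values after normalization, used as an alternative; limma is named without a version in the submitters' processing notes, and quantile normalization in the methods.

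Here, log2 processed signals of 13617 circRNA probes were quantile normalized over the 12 arrays, and the 10211 probes well above background on at least 3 arrays were fitted with 4 group means in limma 3.58.1 (R 4.3.3; lmFit, contrasts, eBayes). Calls needed a log2 fold change of at least 1 in size and p under 0.05 after Benjamini-Hochberg adjustment over all 10211. Shares were summed processed signals before normalization. The code of the fit was checked on simulated arrays. These had independent values for each probe and no scan-day difference or outlying array, so the check does not cover those. Figures were drawn with matplotlib 3.10.9. The number of arrays limits the precision. Replicate numbers were checked for pairing by correlating deviations from group means: over 18 pairs r ran from -0.34 to 0.33, with 6 over 0.1, so they were not treated as pairs. The slide was inferred from the scan day.

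The 200 members, the lists and the tests were chosen with earlier results of these data known. The naming rule gave the 5 brightest members, the 2 on each side of the limit, members passing the adjustment (0), and those with the largest and smallest SD; others named were chosen after their values were seen. In all, 31 alternatives were run, of which 3 were added after seeing the data, as were the alternatives for the comparison of untreated cells between times.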

Additional observations from a re-analysis of the deposited data

How the results depend on the processing

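With the same 200 probes, 0 calls at 24 h became 1 with cyclic loess (0.5%, against 1.21% of all probes fitted), 3 with the signal before background subtraction (1.5%, against 0.862%), 1 with normexp on the median signal, offset 50 (0.5%, against 0.313%), 2 with the deposited log2 values (1%, against 0.715%), 1 with the filter of detection on all 12 arrays (0.5%, against 1.21%), and 2 with a trended, robust variance (1%, against 1.56%). Leaving out 1 array gave 0 to 6 calls at 24 h: 6 without untreated replicate 3 at 24 h (3%, against 3.06%), 6 without cytokine replicate 3 at 24 h (3%, against 4.39%), 1 without untreated replicate 1 at 48 h (0.5%, against 1.12%), and 0 without the first cytokine array. At 48 h, 75th-percentile scaling gave 1 call (0.5%, against 0.979%), and leaving out any 1 array gave 0. With the 200 chosen on the cytokine arrays, 6 were called at 24 h (3%, against 1.24%) and 6 at 48 h (3%, against 0.979%), a list chosen on the arrays that are compared. The 400 brightest probes gave 1 call at 48 h (0.25%, against 0.979%). The median log2 fold change at 24 h was -0.54 with 75th-percentile scaling, and the cause of these changes was not tested; it ran from -0.19 to 0.01 when 1 array was left out. The share of signal, untreated and with cytokines at 48 h, was 53.1% and 51.7% before background subtraction, 51.4% and 51.5% for the 100 brightest, and 67.2% and 67.1% for the 400 brightest. With the replicate number as a block, 0 members were called at 24 h and 0 at 48 h, and the medians were -0.12 and -0.02; among all retained probes the calls went from 127 to 94 at 24 h and from 100 to 98 at 48 h. With the slide as a block, 0 members were called at 24 h, while the calls among all retained probes went from 127 to 109. At 48 h the block leaves 1 untreated array to set against the 3 cytokine arrays, so only the median of the 200 is given (0.03). The differences between times gave 0 called members in all 23 alternatives run for each. All 200 were well above background on every array; 3 arrays per group limit the precision.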

Other observations

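Some probes outside the list reached the brightest 200 with cytokines. By group means, 41 probes that were not members were among the 200 brightest of the cytokine arrays at 24 h or 48 h, 13 of them at both times. Of the 41, 8 passed the cutoffs at 24 h and the same 8 at 48 h (limma), all higher with cytokines. Of all retained probes, 1.24% passed at 24 h and 0.979% at 48 h. The cytokine arrays enter both the choice of these probes and the comparison, so the counts are a description. Without the first cytokine array at 24 h, there were 37 such probes, 11 of them at both times, and 2 passed the cutoffs at 24 h and 8 at 48 h. Of all retained probes, 0.725% and 1.19% then passed. ASCRP3002713 moved the most, from rank 5836 in untreated cells into the 200 brightest at 24 h, with a log2 fold change of 5.84 at 24 h (adjusted p = 1.272e-06) and 4.72 at 48 h (adjusted p = 1.092e-05) in limma. It was chosen after its values were seen.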
